A study of Mus musculus with 37 samples.

Results

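The genes of the mitochondrial respiratory chain were described in primary astrocytes of newborn mice. A gene belonged to the set when its symbol in the platform annotation began with Nduf, Uqcr, Atp5 or Cox4 to Cox8, or was Sdha, Sdhb, Sdhc, Sdhd, Cyc1 or Cycs. This rule found 92 of the 18194 genes that had a probe set with 1 symbol, and each gene was read from its probe set with the highest mean. The set held 36 genes of complex I, 8 complex I assembly factors, 4 genes of complex II, 9 of complex III, 17 of complex IV, 17 of complex V and cytochrome c. Ndufa4 and Ndufa4l2 stood with complex I by their symbols, although the Ndufa4 protein is now known as a component of complex IV.

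RNA from 37 cultures was measured on 37 one-colour arrays. The astrocytes came from 129S4/SvJae (129) or C57BL/6J (B6) mice of either sex, taken at postnatal day 0 to 1, and were grown with serum. All cultures were nucleofected with 5 µg of plasmid, either pcDNA3.1-hygro CDCA7L (called Cdca7l here) or the same pcDNA3.1-hygro vector without an insert. The vector cultures therefore carried the plasmid backbone and the electroporation too. Amplification of 10 ng of RNA came before every hybridisation.

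There were 8 groups. The 129 female vector and 129 female Cdca7l groups had 4 arrays each, and the 129 male vector and 129 male Cdca7l groups had 5 each. The B6 female vector group had 5 arrays, B6 female Cdca7l 4, B6 male vector 5 and B6 male Cdca7l 5. The titles give each culture a clone label such as 4(1), and 15 of 22 clone labels occurred with both plasmids. What a clone is (an animal, a litter or a culture), and whether the cultures of a group were separate animals, is not given in the labels, so p-values measure the spread between these cultures. A culture is a mixture of cells, so fewer cells of a type and less RNA per cell cannot be told apart.

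The respiratory chain is a series of protein complexes in the inner mitochondrial membrane. Complex I (NADH dehydrogenase) and complex II (succinate dehydrogenase) pass electrons to ubiquinone, complex III passes them to cytochrome c, and complex IV (cytochrome c oxidase) passes them to oxygen. The proton gradient that complexes I, III and IV build drives complex V, the ATP synthase. A small part of the subunits is encoded by mitochondrial DNA and the rest, including all members here, by nuclear genes. Several complex IV subunits exist as isoforms with tissue-restricted expression, and astrocytes are known for relying on glycolysis beside respiration.

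Promoter sequence is shown for 3 of the members whose level differed most between strains, for the strain-associated subunit Ndufs5, and for Cox6a1 and Atp5h, which were among the steadiest members. RefSeq promoters on assembly GRCm38.p6 were found for 75 of the 92 members, in 80 entries, and not for Sdhc, Cox4i2 or Cyc1. The 250 bases before each start were searched on both strands for 3 motifs: the palindromic core bound by nuclear respiratory factor 1 (NRF-1), with 1 free base in its middle; CCGGAAG, an ETS site as bound by GABP; and CACGTG, the E-box bound by MYC and its partners. The 3 motifs do not contain one another. The intervals are chr17:78936885-78937134 (plus strand) for Ndufaf7, chr7:4753095-4753344 (minus) for Cox6b2, chr7:30183921-30184170 (plus) for Cox7a1, chr4:123718187-123718436 (minus) for Ndufs5, chr5:115348959-115349208 (minus) for Cox6a1 and chr11:115419920-115420169 (minus) for Atp5h. Each runs 5′ to 3′ towards the start, and capitals mark motif matches on either strand.
Ndufaf7: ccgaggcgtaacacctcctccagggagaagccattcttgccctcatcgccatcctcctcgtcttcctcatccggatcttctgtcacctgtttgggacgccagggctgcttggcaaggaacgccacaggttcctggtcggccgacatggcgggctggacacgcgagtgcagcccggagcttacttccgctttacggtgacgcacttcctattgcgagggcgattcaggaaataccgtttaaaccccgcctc
Cox6b2: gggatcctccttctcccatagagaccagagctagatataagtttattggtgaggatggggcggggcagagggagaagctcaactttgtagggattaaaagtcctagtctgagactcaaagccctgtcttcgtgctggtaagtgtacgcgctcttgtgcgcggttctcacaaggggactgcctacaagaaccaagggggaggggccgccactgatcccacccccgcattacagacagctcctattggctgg
Cox7a1: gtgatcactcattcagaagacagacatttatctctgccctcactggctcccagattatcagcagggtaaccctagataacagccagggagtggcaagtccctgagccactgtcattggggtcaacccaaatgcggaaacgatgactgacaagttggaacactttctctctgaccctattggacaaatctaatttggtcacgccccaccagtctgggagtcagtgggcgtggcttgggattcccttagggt
Ndufs5: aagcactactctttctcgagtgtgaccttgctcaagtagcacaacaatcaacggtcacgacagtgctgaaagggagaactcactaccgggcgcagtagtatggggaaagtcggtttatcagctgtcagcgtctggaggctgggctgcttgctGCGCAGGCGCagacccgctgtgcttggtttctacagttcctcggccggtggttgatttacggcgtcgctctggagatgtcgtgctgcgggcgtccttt
Cox6a1: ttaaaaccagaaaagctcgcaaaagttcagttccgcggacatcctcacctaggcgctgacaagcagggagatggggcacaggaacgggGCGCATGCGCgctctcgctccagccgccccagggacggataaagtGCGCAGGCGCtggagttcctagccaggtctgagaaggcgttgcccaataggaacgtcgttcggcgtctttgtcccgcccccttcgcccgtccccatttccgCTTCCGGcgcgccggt
Atp5h: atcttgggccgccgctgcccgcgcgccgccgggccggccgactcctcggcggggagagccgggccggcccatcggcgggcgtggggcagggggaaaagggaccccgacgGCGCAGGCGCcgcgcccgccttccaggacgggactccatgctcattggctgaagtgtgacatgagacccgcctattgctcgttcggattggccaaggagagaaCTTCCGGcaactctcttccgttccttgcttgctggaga

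The NRF-1 motif was in 13 of the 80 member promoters (16.2%) and in 3.74% of all 32851 promoters of the same length. The ETS motif was in 14 (17.5%), against 6.91% of all, and the E-box in 7 (8.75%), against 6.02%. Ndufs5 and Atp5h held 1 NRF-1 match each and Cox6a1 held 2, while the windows of Ndufaf7, Cox6b2 and Cox7a1 held none of the 3 motifs. These shares describe letters in the reference sequence and were not tested.

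The respiratory chain was well measured in these cells. To be tested, a probe set had to lie above 3.19 on the log2 scale, the median of the deposited table, on at least 4 arrays, and 85 of the 92 members passed. All 85 exceeded that level on each of the 37 arrays. The 7 others were Cox6a2 and Cox8b, the heart and muscle isoforms of complex IV subunits, the testis isoforms Cox7b2 and Cox8c, Ndufa4l2, which is known to be induced by hypoxia, and the complex I subunits Ndufb1 and Ndufb4. Of these, 6 were at or below the level on all arrays and Cox8c exceeded it on 1. Ndufb1 and Ndufb4 each had 1 probe set, so that a silent probe set and a silent gene cannot be told apart for them. For 55 members the probe set carried a suffix (_a, _s or _x) that marks probes shared between transcripts or genes, and this can mix related sequences. Cox7b was not found under its own symbol and is not analysed here.

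As a check of the cells and labels, 9 of 12 astrocyte markers exceeded the level on all 37 arrays, among them Gfap, Aqp4 and Slc1a3. Of the markers of other cells, 2 of 14 for microglia, 3 of 9 for oligodendrocyte lineage, 2 of 10 for neurons, 5 of 9 for fibroblasts, 3 of 8 for smooth muscle, 0 of 8 for endothelium and 1 of 10 for ependyma did. The microglial markers Cx3cr1, Itgam and Trem2 were at or below it on every array. Cdca7l itself was higher with the Cdca7l plasmid by 4.61 ± 0.484 (log2, SE) over the 4 strain and sex groups (limma adjusted p = 1.25e-06). The lowest Cdca7l array read 10.15 and the highest vector array 10.43, a vector culture of 129 females. The 129 female vector culture 1(3) stood apart with an upper quartile of 8.36.

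The array labelled B6 female vector 5.1(1) went against its sex label. Xist, the RNA of the inactive X chromosome, read 2.40 on it, beside 10.71 to 12.20 on the 16 other arrays labelled female and 2.30 to 2.50 on the 20 labelled male. The Y-linked Eif2s3y read 11.91 on it, beside 2.26 to 2.73 and 11.73 to 12.71. The array was kept in its labelled group. Some counts and medians over the members are also given without it. Values by sex of single genes, complexes and gene lists include it. Without both this array and 1(3), 4 members passed between strains and 0 in the other comparisons below, the same counts as with them.

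The first comparison set cultures with extra Cdca7l, a protein known to bind MYC, against their vector controls. No member passed the threshold, an adjusted p under 0.05 over all 25579 probe sets tested. Averaged over strain and sex, 0 of 85 members passed in limma and 0 had an unadjusted p under 0.05; the 25579 probe sets held 2 that passed (0.00782%) and 324 with an unadjusted p under 0.05. This fit left the clone labels out, although 15 of 22 occurred with both plasmids. With the clone label as a random block, 0 members and 2 probe sets passed. In that fit 861 probe sets had an unadjusted p under 0.05, 1 member among them. Without the block, the members' differences lay between -0.32 and 0.29 on the log2 scale. The 95% interval of 78 of the 85 lay within 0.5 of zero and that of 84 within 1. Cox7c, a small subunit of complex IV, was the only member with a wider interval.

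Within these limits, 67 of 85 members had a lower mean with Cdca7l, with a median difference of -0.05, beside a median of 0.02 over all probe sets. By complex, 28 of 33 tested complex I genes, 7 of 9 of complex III and 15 of 17 of complex V were on the lower side, against 8 of 13 of complex IV and 2 of 4 of complex II. The smallest p-values belonged to Ndufaf8, a complex I assembly factor, at -0.32 ± 0.168 (SE), Ndufb2, an accessory complex I subunit, at -0.22 ± 0.122, and Atp5g1, one of the genes for the membrane ring subunit c of ATP synthase, at -0.16 ± 0.0943; Uqcrc1, a core protein of complex III, and Sdhb, the iron-sulfur subunit of complex II, followed at -0.15 and -0.14. For all 5 the adjusted p was 0.9995. On dimmer probe sets without a suffix the sign was opposite, at 0.06 for Ndufb2 (mean 4.60) and 0.51 for Atp5g1 (mean 3.05, under the 3.19 used as background), while another Ndufb2 probe set with a mean of 10.64 gave -0.12.

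Among genes near the chain, the mitochondrial ribosome showed the same side: 67 of 76 genes were lower with Cdca7l, with a median of -0.10 and none past the threshold. Of 40 tested assembly factors outside the rule, 28 were lower with a median of -0.09, while 19 of 27 regulators of mitochondrial biogenesis were higher with a median of 0.04, and again none passed. Proliferation genes were higher in 16 of 19 with a median of 0.25; none passed. Among cell type markers, those of microglia had lower means in 9 of 9 with a median of -0.96, those of astrocytes higher means in 10 of 11 with a median of 0.14, and those of ependyma higher means in 5 of 6 with a median of 0.50; none passed. The microglial markers did not go one way in all groups. In B6 males 9 of 9 had higher means with Cdca7l, with a median of 1.09. Their median was -0.28 in 129 females, -2.365 in 129 males and -1.66 in B6 females, with 9 of 9 lower in each. Summed log2 values of 14 microglial markers ran from 36.4 to 70.7 with Cdca7l and from 36.4 to 111.8 with vector. The part of these lists in the members' values was not tested.

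In the single groups, limma again called 0 of 85 members and 0 of 25579 probe sets in each, for a background of 0%. The probe sets with an unadjusted p under 0.05 numbered 503 in 129 females, 422 in 129 males, 142 in B6 females and 538 in B6 males, and no member was among them. With the clone label as a random block they numbered 1513, 828, 188 and 1479, with 1 member among them, in B6 males. That fit called 1, 0, 1 and 4 of all probe sets and 0 members. The values that follow for these groups are from the fit without the block. The members' median was -0.11 in 129 females, with 73 of 85 lower, -0.01 in 129 males, -0.06 in B6 females and -0.04 in B6 males. In 129 females it ran from -0.16 to -0.05 as single arrays were left out, nearest to zero without Cdca7l 2(3), and was -0.06 without vector 1(3). In B6 females it was -0.07 without the array labelled 5.1(1). All 4 medians had the other sign under at least 1 alternative. Cdca7l itself, at 3.87 to 5.10, did not pass in any single group either (adjusted p from 0.157 to 1). In 129 females the smallest p-values were those of Atp5k (-0.32 ± 0.20, SE), Uqcr11, Sdhb, Ndufb9 and Atp5md; in 129 males of Ndufv3 (0.20 ± 0.13), Ndufb2, Cox7c, Cox5b and Ndufaf3. In B6 females they were those of Cox7c (1.55 ± 0.97), Uqcrc1, Ndufa8, Uqcrfs1 and Atp5e, and in B6 males of Ndufb10 (-0.21 ± 0.11), Cox4i2, Ndufs8, Cox6c and Ndufaf2. The adjusted p was 1 for each of them.

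The Cdca7l difference was also compared between strains and between sexes. In both tests 0 of 85 members and 0 of all probe sets passed in limma (0%), with 429 and 184 probe sets at an unadjusted p under 0.05 and no member among them. With the clone label as a random block these numbers were 1158, with 1 member among them, and 503, with 0. Again 0 members and 0 probe sets passed. The genes named next are from the fit without the block. Cox4i2, the complex IV isoform known from lung and from hypoxia, had the smallest p between strains, at 0.64 ± 0.38 (B6 minus 129). Ndufaf4, a complex I assembly factor, had the smallest between sexes, at -0.43 ± 0.28 (male minus female).

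**Figure D1:**
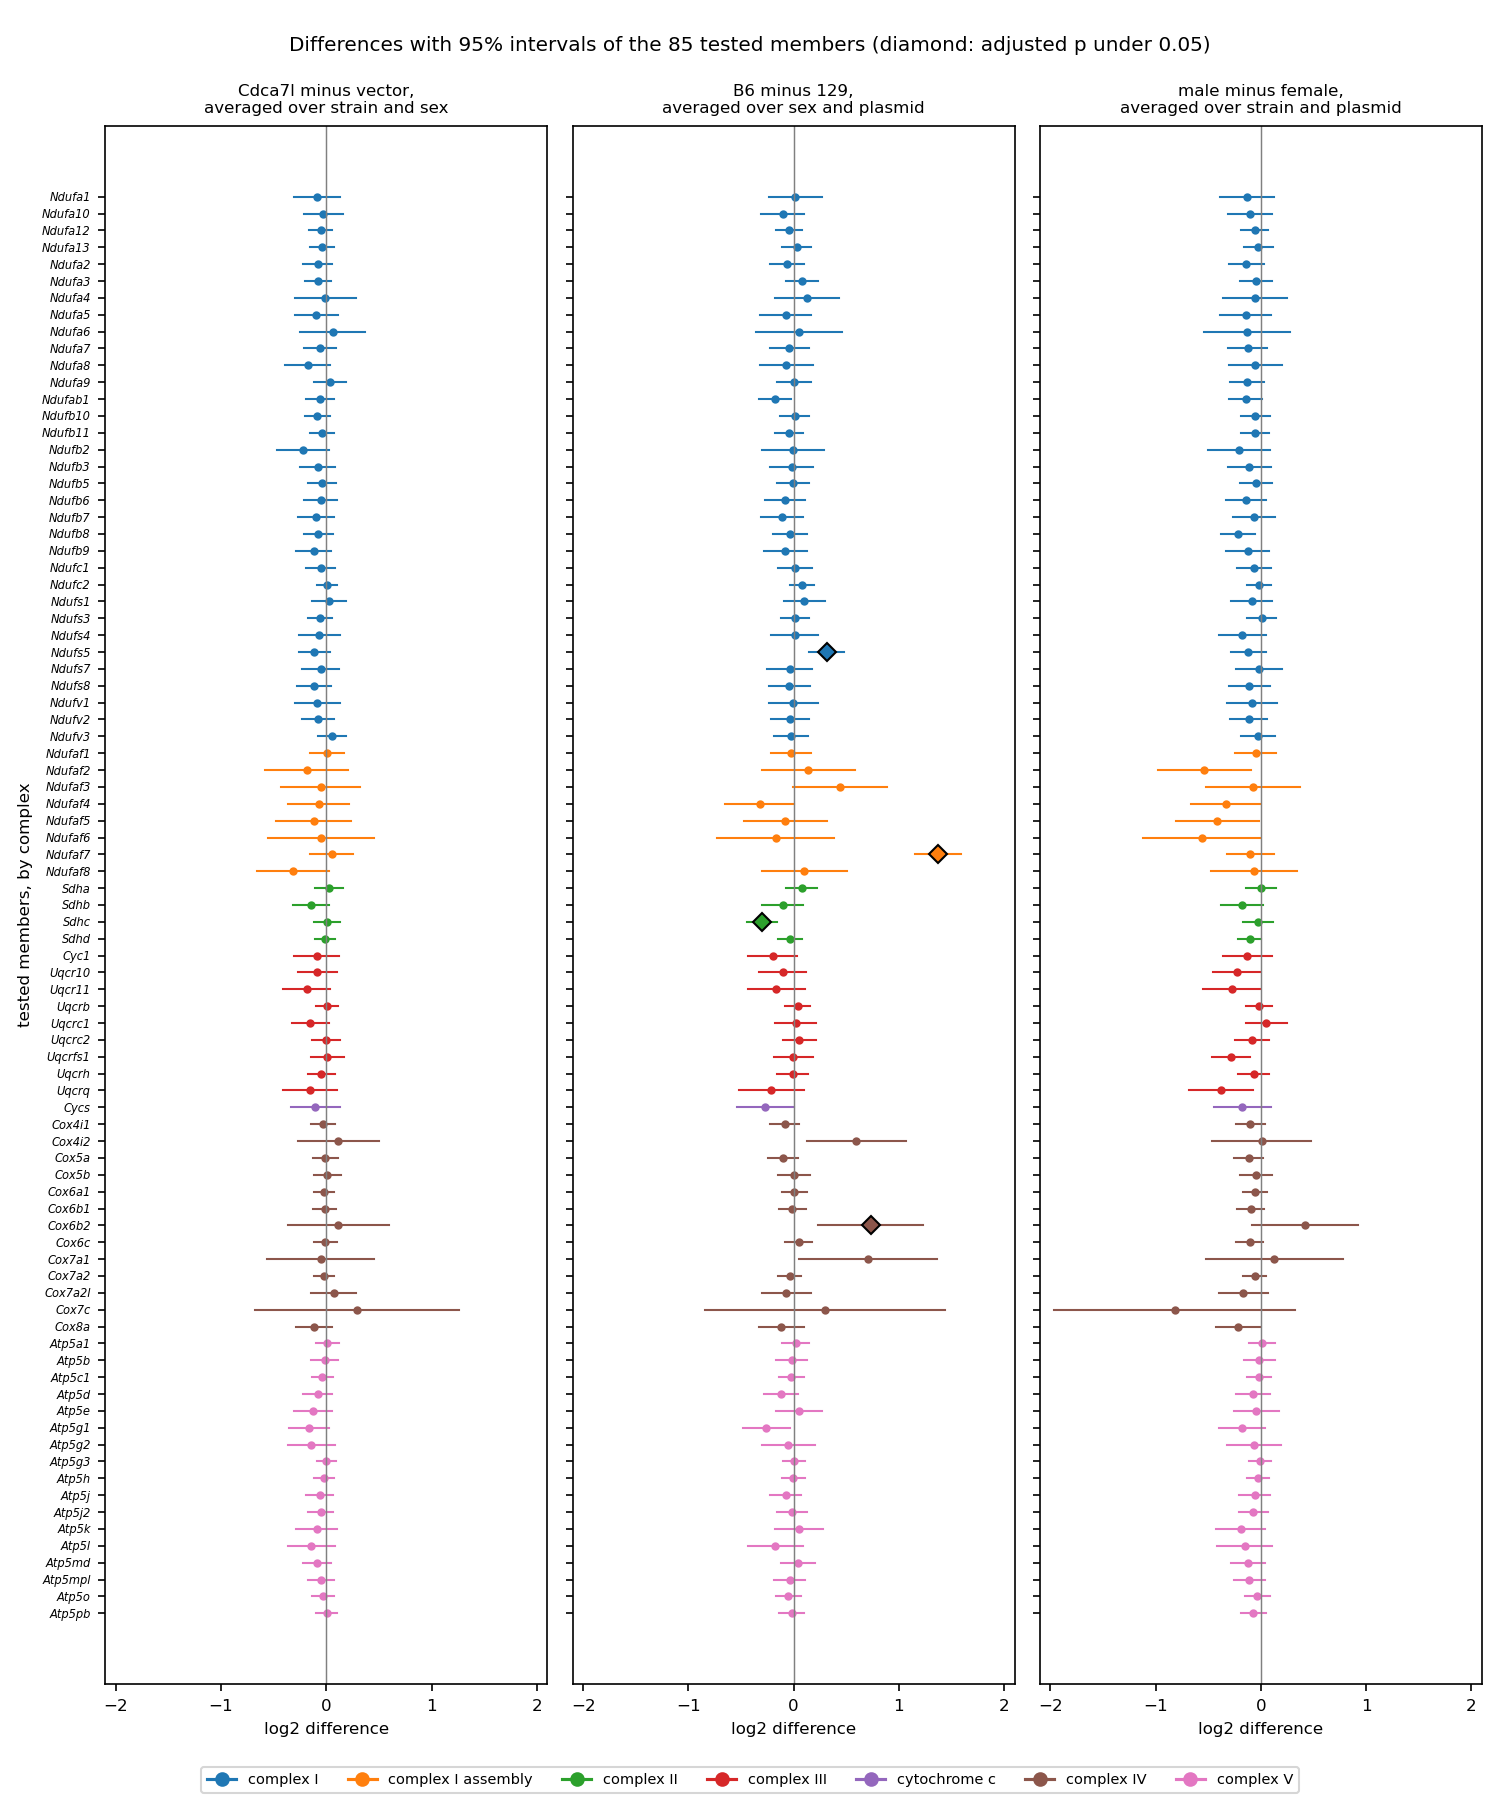
Log2 difference of each of the 85 tested members, with its 95% interval, for the plasmid, strain and sex comparisons; colours mark the complexes and diamonds an adjusted p under 0.05. The 4 diamonds, Ndufs5, Ndufaf7, Sdhc and Cox6b2, are all in the strain panel, and most points of the sex panel lie left of zero.

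Between strains, 4 members passed. Ndufaf7, Ndufs5 and Cox6b2 were higher in B6 and Sdhc was higher in 129. These 4 of 85 are 4.71% of the members, beside a background of 4249 of 25579 probe sets, or 16.6% (10.0% higher and 6.57% lower in B6). Likewise 8 members (9.41%) had an unadjusted p under 0.05, beside 31.85% of all probe sets. The members' median difference, B6 minus 129, was -0.02 and that of all probe sets -0.01. For Ndufa12, a complex I gene that did not pass, the bright probe sets disagreed. The one used, with the highest mean, gave -0.05 (limma adjusted p = 0.632). Another with a mean of 12.89 gave -0.37 (adjusted p = 0.00236), and one with a mean of 13.55 gave 0.15 (adjusted p = 0.0808).

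Ndufaf7 encodes a mitochondrial methyltransferase that modifies a core subunit of complex I during assembly. Its values ran from 9.10 through a median of 9.77 to 10.20 on the 18 arrays of 129 cultures, and from 10.55 through 11.10 to 11.66 on the 19 of B6. The strains did not overlap. All 4 pairs of groups showed the gap, with 9.72 ± 0.42 (SD, n = 4) in 129 female vector against 11.19 ± 0.32 (n = 5) in B6 female vector, and 9.67 ± 0.30 (n = 5) in 129 male vector against 10.92 ± 0.32 (n = 5) in B6 male vector. With Cdca7l the means were 9.78 and 11.17 in females and 9.69 and 11.08 in males. The difference was 1.37 ± 0.109 (SE, limma adjusted p = 4.45e-11), a 2.59-fold difference in signal. Ndufaf7 was read by 1 probe set, with the suffix _s, so no other probe set could be compared. Whether its probes lie over bases that differ between the strains is not given here. Ndufs5 and Cox6b2 also had 1 probe set each.

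Sdhc encodes a membrane anchor of complex II. Its values were 12.35, 12.57 and 12.85 (lowest, median and highest) in 129 and 12.05, 12.26 and 12.59 in B6, and 8 of the 18 arrays of 129 exceeded every B6 array. The difference was -0.30 ± 0.0701 (SE; limma adjusted p = 0.00348). A second Sdhc probe set gave -0.55 (adjusted p = 0.00798). The remaining complex II genes differed less: Sdha, the flavoprotein, by 0.08, Sdhb by -0.10, and Sdhd, the other anchor, by -0.04, none past the threshold.

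Ndufs5, an accessory subunit of complex I, ran over 11.79, 11.97 and 12.40 in 129 and 11.99, 12.29 and 12.83 in B6. The strains overlapped, with 7 of 19 B6 arrays above every 129 array. Group means were lowest in 129 males, at 11.93 ± 0.09 (SD, n = 5) with vector and 11.84 ± 0.06 (n = 5) with Cdca7l, and those of B6 lay between 12.23 and 12.41. The difference was 0.31 ± 0.0823 (SE; limma adjusted p = 0.00944), and its promoter was the one above with a single NRF-1 match and no ETS match.

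Cox6b2 is the isoform of complex IV subunit VIb known from testis. In B6 it held between 12.59 and 13.35 with a median of 12.83, while in 129 it ran from 9.93 through 12.46 to 13.55. The 129 female clones 4(1) and 2(1) were low on both plasmids: 4(1) read 9.93 with vector and 10.31 with Cdca7l, and 2(1) read 11.21 and 11.37. The other 129 female arrays read 12.49 to 13.55. The difference was 0.73 ± 0.246 (SE; limma adjusted p = 0.0394). It did not pass without the arrays of clone 4(1), where it was 0.445 (adjusted p = 0.153), or without the filter on dim probe sets (adjusted p = 0.0682). Its ubiquitous counterpart Cox6b1 differed by -0.01.

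**Figure D2:**
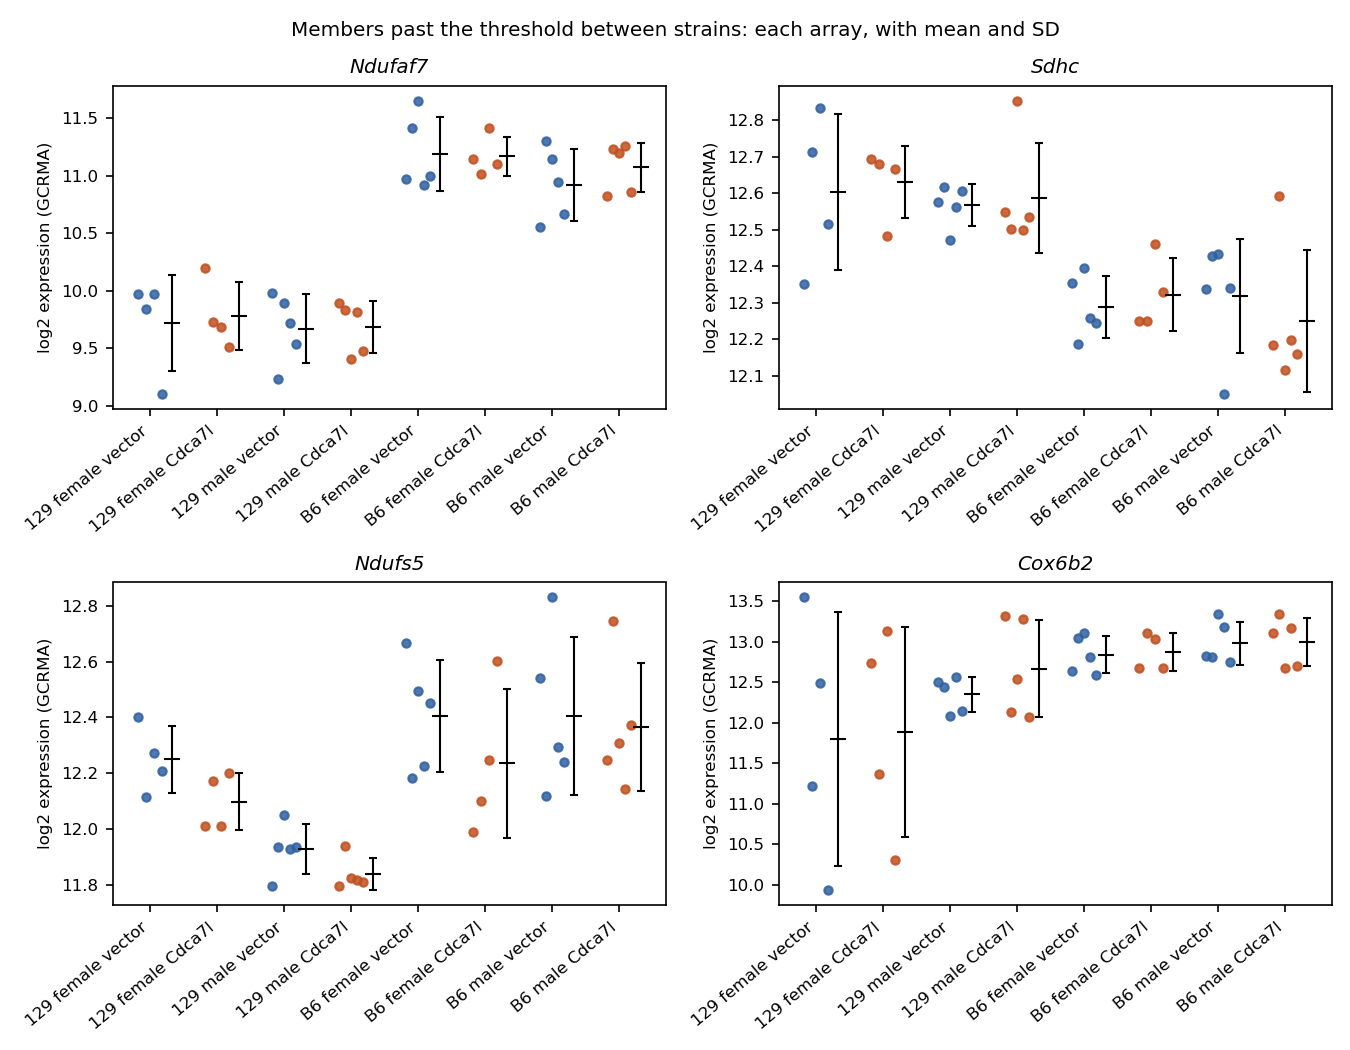
Log2 expression of Ndufaf7, Sdhc, Ndufs5 and Cox6b2 on every array of the 8 groups (blue: vector; orange: Cdca7l), with the group mean and SD in black; the y axes differ between panels and do not start at 0. Ndufaf7 separates the strains completely, and the low Cox6b2 values are 4 arrays of 129 females.

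Other complex IV isoforms with restricted expression had higher means in B6 but did not pass. Cox4i2 was 0.60 ± 0.230 (SE) higher (adjusted p = 0.0711) and Cox7a1, the heart and muscle isoform, 0.71 ± 0.321 higher (adjusted p = 0.125). Cox4i2 ran up to 5.83 in 129 and from 4.87 to 6.69 in B6; Cox7a1 ran from 6.09 to 9.23 and from 7.52 to 9.10. The strains overlapped for both. Their widely expressed counterparts were nearer to zero: Cox4i1 by -0.08, Cox7a2 by -0.04 and Cox7a2l, which joins complexes III and IV into supercomplexes, by -0.07. The remaining pairs of the panel were Cox6a1 at 0.01 and Cox8a at -0.12. The sizes of isoforms and counterparts were not tested against each other.

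Of the subunit c genes of ATP synthase, which encode the same mature protein, Atp5g1 was at -0.26 ± 0.107 (SE; adjusted p = 0.0953), Atp5g2 at -0.05 and Atp5g3 at 0.00. Ndufab1, the mitochondrial acyl carrier protein, was at -0.17 (adjusted p = 0.108) and Cycs at -0.27 (adjusted p = 0.159). Cyc1, the cytochrome of complex III, was at -0.20. Among the complex I assembly factors, Ndufaf3 was at 0.44 (adjusted p = 0.159) and Ndufaf4 at -0.32 (adjusted p = 0.164). None of these passed.

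Genes of the lists around the chain passed between strains too, each list at a share below the 16.6% of all probe sets. Of 40 assembly factors outside the rule 3 were lower in B6: Timmdc1, for complex I, by -1.21 (limma adjusted p = 2.21e-08), and Cox18 and Coa3, for complex IV, by -0.91 and -0.37. The regulator Nrf1 was lower in B6, at -0.91 ± 0.245 (adjusted p = 0.0106), and Esrrg, an estrogen-related receptor, was higher at 1.39; these were 2 of 27. In the mitochondrial ribosome 3 of 76 were higher and 5 lower, led by Mrps12 at 1.84. The tricarboxylic acid cycle had 1 of 19, Sucla2 at -0.23, the carriers and protective enzymes 2 of 16, Prdx3 at 1.11 and Nnt at -0.32, and the hypoxia response 1 of 12, Ndrg1 at 0.65. Nnt is known to be disrupted in C57BL/6J; whether its probes lie in the deleted part is not given here. Of the chain subunits encoded in mitochondrial DNA, 1 gene was measured, at 0.04.

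Markers of the cultures' cells differed between strains as well. Fibroblast markers were lower in B6 in 8 of 8, with a median of -1.99 and 3 past the threshold, and proliferation genes in 18 of 19, with a median of -0.74 and 4 past it. Astrocyte markers were higher in B6 in 11 of 11, with a median of 0.76 and 4 past it. Of 5 tested neuron markers 3 passed as higher and 1 as lower in B6. For ependyma 3 of 6 passed as higher, for oligodendrocyte lineage 2 of 5 and for smooth muscle 1 of 4. For endothelium 1 of 2 passed as lower, and for microglia 0 of 9 passed. Of all probe sets, 16.6% passed. Summed over a list, log2 values ran from 56.7 to 105.5 in 129 and from 56.6 to 69.5 in B6 for 9 fibroblast markers, and from 104.2 to 143.7 and from 127.1 to 145.3 for 12 astrocyte markers. For 19 proliferation genes they ran from 132 to 224.5 and from 135.6 to 187.8. The part of these differences in the members' values was not tested.

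Between the sexes no member passed, but the members leaned one way. Males were lower for 79 of 85, with a median difference of -0.09, while the median over all probe sets was 0.02 and 52.5% of them were higher in males. Limma called 0 of 85 members, beside 19 of all probe sets (0.0743%; 0.0547% higher and 0.0195% lower in males); 10 members (11.8%) and 2969 probe sets (11.6%) had an unadjusted p under 0.05. By complex, 32 of 33 tested genes of complex I, all 4 of complex II, 8 of 9 of complex III, 10 of 13 of complex IV, 16 of 17 of complex V and all 8 assembly factors were on the lower side in males. Without the array labelled B6 female vector 5.1(1), 7 members were positive, the median was -0.10, 0 members passed and 24 probe sets did. The count over all probe sets rose from 19 when arrays of 129 female clone 1(3) were left out. It was 403 without both arrays of this clone and 164 without the Cdca7l array alone, with 0 members among them.

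Uqcrfs1, the Rieske iron-sulfur protein of complex III, had the smallest p, at -0.28 ± 0.0904 (SE; limma adjusted p = 0.326). It ran from 12.37 to 12.91 in 129 female vector and from 11.86 to 12.13 in 129 male vector, groups that did not overlap, but from 11.84 to 12.63 and from 12.27 to 12.49 in the corresponding B6 groups. Next came Ndufb8, an accessory complex I subunit, at -0.22 (adjusted p = 0.337), Uqcrq, a small complex III subunit, at -0.38 (0.357), and the assembly factors Ndufaf2 at -0.54 (0.357) and Ndufaf5 at -0.41 (0.413). The X-linked members Ndufa1 and Ndufb11 were at -0.13 and -0.05.

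Similar leanings ran through other lists. The mitochondrial ribosome was lower in males in 69 of 76 (median -0.20), assembly factors outside the rule in 31 of 40 (median -0.17) and proliferation genes in 17 of 19 (median -0.42), while astrocyte markers were higher in 11 of 11 (median 0.58). None of these passed singly, and their part in the members' values was not tested. For the proliferation genes the summed log2 values ran from 132 to 224.5 in females and from 135.6 to 183.8 in males, and for the astrocyte markers from 104.2 to 143.7 and from 123.9 to 145.3.

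The sex difference was also compared between strains, and no member passed. In B6 minus 129, 74 of 85 were positive with a median of 0.19, beside a median of -0.12 over all probe sets. Without the array labelled 5.1(1), 73 were positive with a median of 0.19. Limma called 0 members and 0 of 25579 probe sets (0%). At an unadjusted p under 0.05 there were 7 members (8.235%) and 2115 probe sets (8.269%), nearly the same share. The smallest p belonged to Sdhb at 0.57 ± 0.194 (SE; limma adjusted p = 0.562). Its means were 12.41 ± 0.25 (SD, n = 4) in 129 female vector and 11.87 ± 0.13 (n = 5) in 129 male vector, which did not overlap, but 11.92 ± 0.22 (n = 5) and 12.04 ± 0.12 (n = 5) in B6. Ndufb9, an accessory subunit of complex I, at 0.53, Uqcrfs1 at 0.47, Atp5g1 at 0.49 and Cyc1 at 0.49 followed. Cell type markers leaned the other way: those of fibroblasts were negative in 8 of 8 (median -2.22), of ependyma in 6 of 6 (-2.31), of microglia in 9 of 9 (-1.42) and of astrocytes in 9 of 11 (-0.46), none past the threshold. Their part in the members' values was not tested.

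The members' values were also averaged over each complex. The score of a complex on an array is the mean of its members' values after each was centred on its own mean over the arrays. Over all 85 members it was 0.16 ± 0.16 (SD, n = 4) in 129 female vector, 0.04 ± 0.13 (n = 4) in 129 female Cdca7l, -0.11 ± 0.06 (n = 5) in 129 male vector and -0.12 ± 0.11 (n = 5) in 129 male Cdca7l. In B6 it stayed between -0.01 and 0.04 in the 4 groups, with SDs between 0.05 and 0.20. The single complexes did not all follow this layout. In complexes I, II, III and V the highest group mean was that of 129 female vector. Complex IV was highest in B6 female Cdca7l, at 0.19 ± 0.18 (SD, n = 4), and the assembly factors in B6 female vector, at 0.21 ± 0.32 (n = 5). The 129 female vector group had the highest mean of the 8 for 55 of 85 members, and the lowest mean was in 129 male Cdca7l for 25 and in 129 male vector for 24. The scores of the 5 complexes were all above 0 on 5 arrays, all below on 5 and mixed on 27. Many scores lay near 0, where a sign says little. The complex II score rests on 4 genes, and that of complex IV includes Cox7c, with a pooled SD of 1.48. Whether the complexes moved apart was not tested. Complexes I, III and V had 1 sign on 29 arrays, while complex IV had the sign of complex I on 23.

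**Figure D3:**
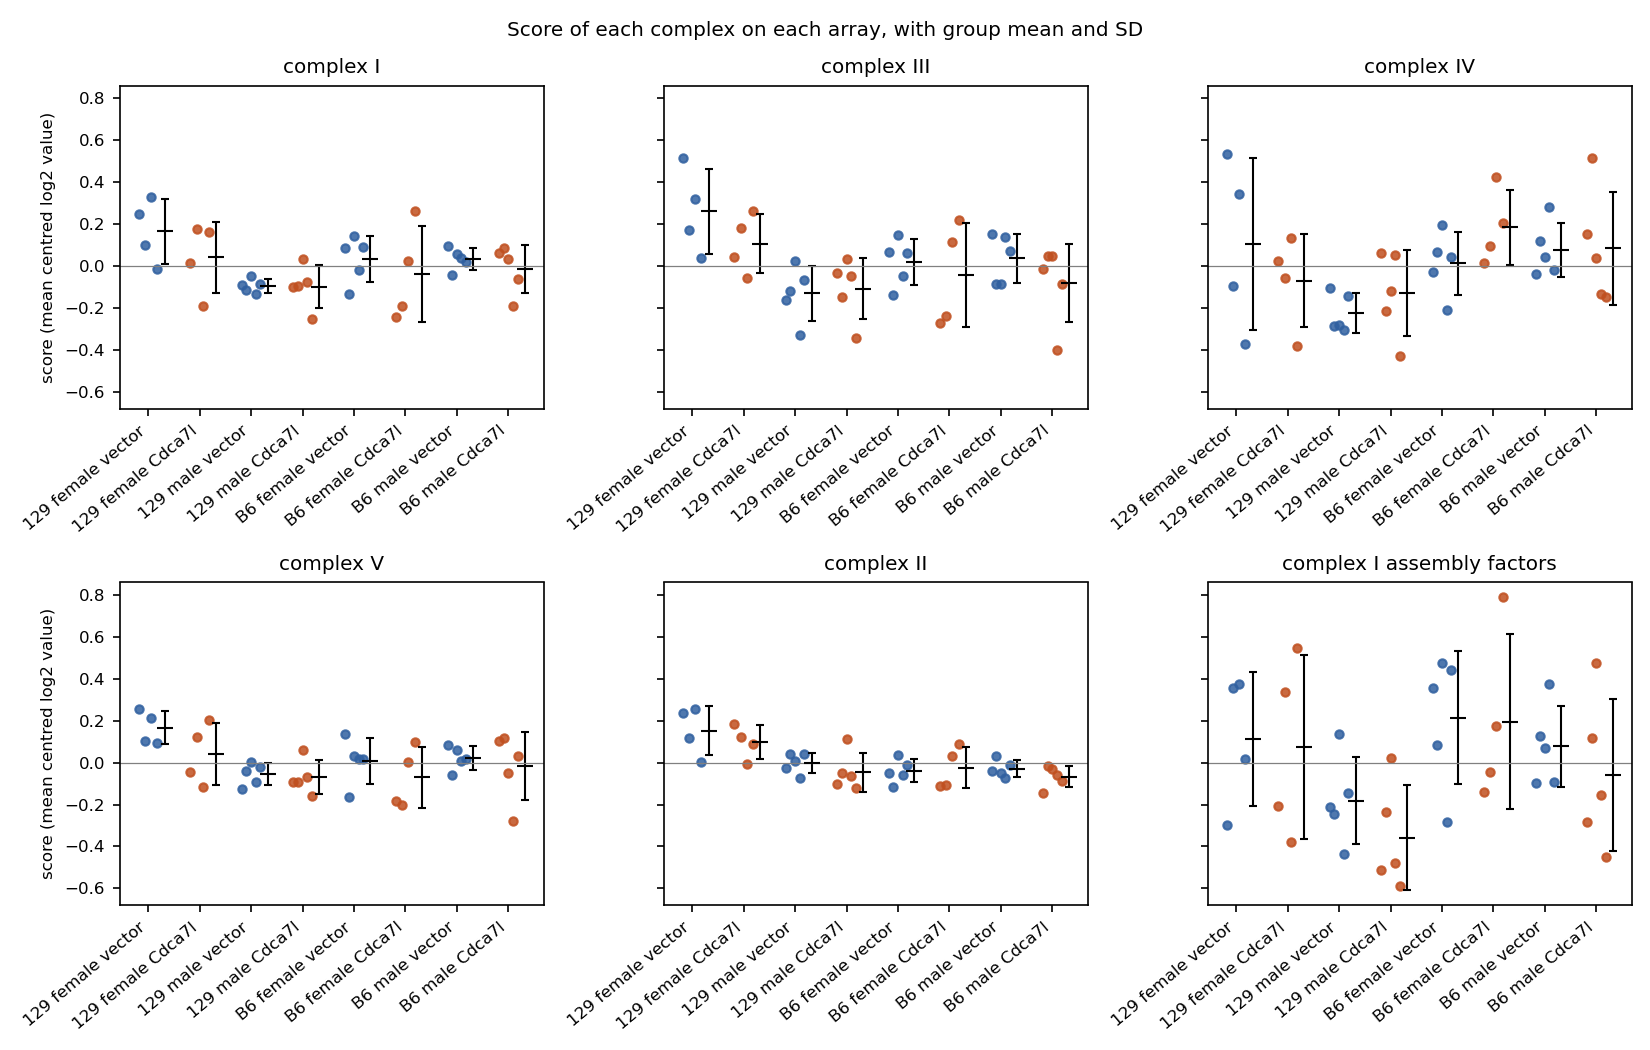
Score of complexes I to V and of the complex I assembly factors on every array by group (blue: vector; orange: Cdca7l), with the group mean and SD in black and a line at 0. Most points lie within 0.3 of 0; 129 female vector lies highest in complexes I, II, III and V, and the assembly factors scatter most.

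The group means of a member lay close together for most of the set. They spanned less than 0.5 for 58 of 85 members and less than 1 for 80. Within groups the median pooled SD was 0.207 for the members and 0.643 for all probe sets. Bright probe sets varied less in general: among those with a mean of at least 12 the medians were 0.170 for 69 members and 0.249 for all, and of at least 13, 0.135 for 40 members and 0.180 for all. In bins 1 log2 unit wide, 67 of 85 members (78.8%) had an SD under the median of all probe sets of their bin.

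The steadiest members were Atp5g3, with a pooled SD of 0.0582, Atp5h, a stalk subunit of ATP synthase, with 0.0690, Sdhd, Cox7a2 and Cox6a1. The most variable were Cox7c with 1.48, Cox7a1 with 0.766, Ndufaf6, a complex I assembly factor, with 0.759, Cox6b2 with 0.721 and Ndufaf2 with 0.593. By class the median SD was 0.518 for the complex I assembly factors, 0.245 for complex III, 0.204 for complex I, 0.160 for complex IV, 0.154 for complex V and 0.153 for complex II.

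Cox7c spread from 4.91 to 11.21. It read 11.13, 7.72, 8.85 and 7.71 in 129 female vector and 6.96, 5.17, 6.18, 4.91 and 7.20 in 129 male vector. It read 6.71, 6.75, 8.89, 5.98 and 7.82 in B6 female vector and 6.93, 8.55, 8.62, 10.65 and 7.14 in B6 male vector. With Cdca7l it ran from 5.26 to 11.21 over all groups, and every group overlapped at least 1 other. Its probe set has the suffix _s, and the second Cox7c probe set was tested as well but dim, with a mean of 2.82.

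**Figure D4:**
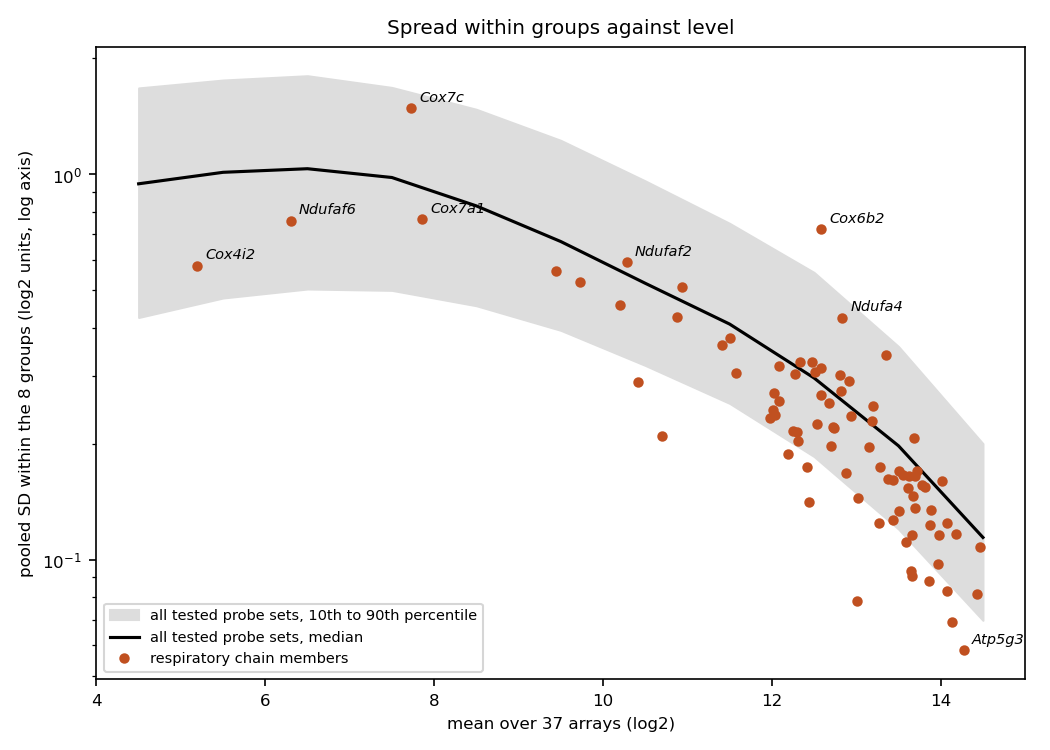
Pooled SD within the 8 groups (log axis) against the mean log2 value over the 37 arrays for the 85 tested members (orange), with the median and the 10th to 90th percentiles of all tested probe sets in bins 1 unit wide. Most members lie below the median line; Cox6b2 lies far above it and Atp5g3 is lowest.

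**Figure D5:**
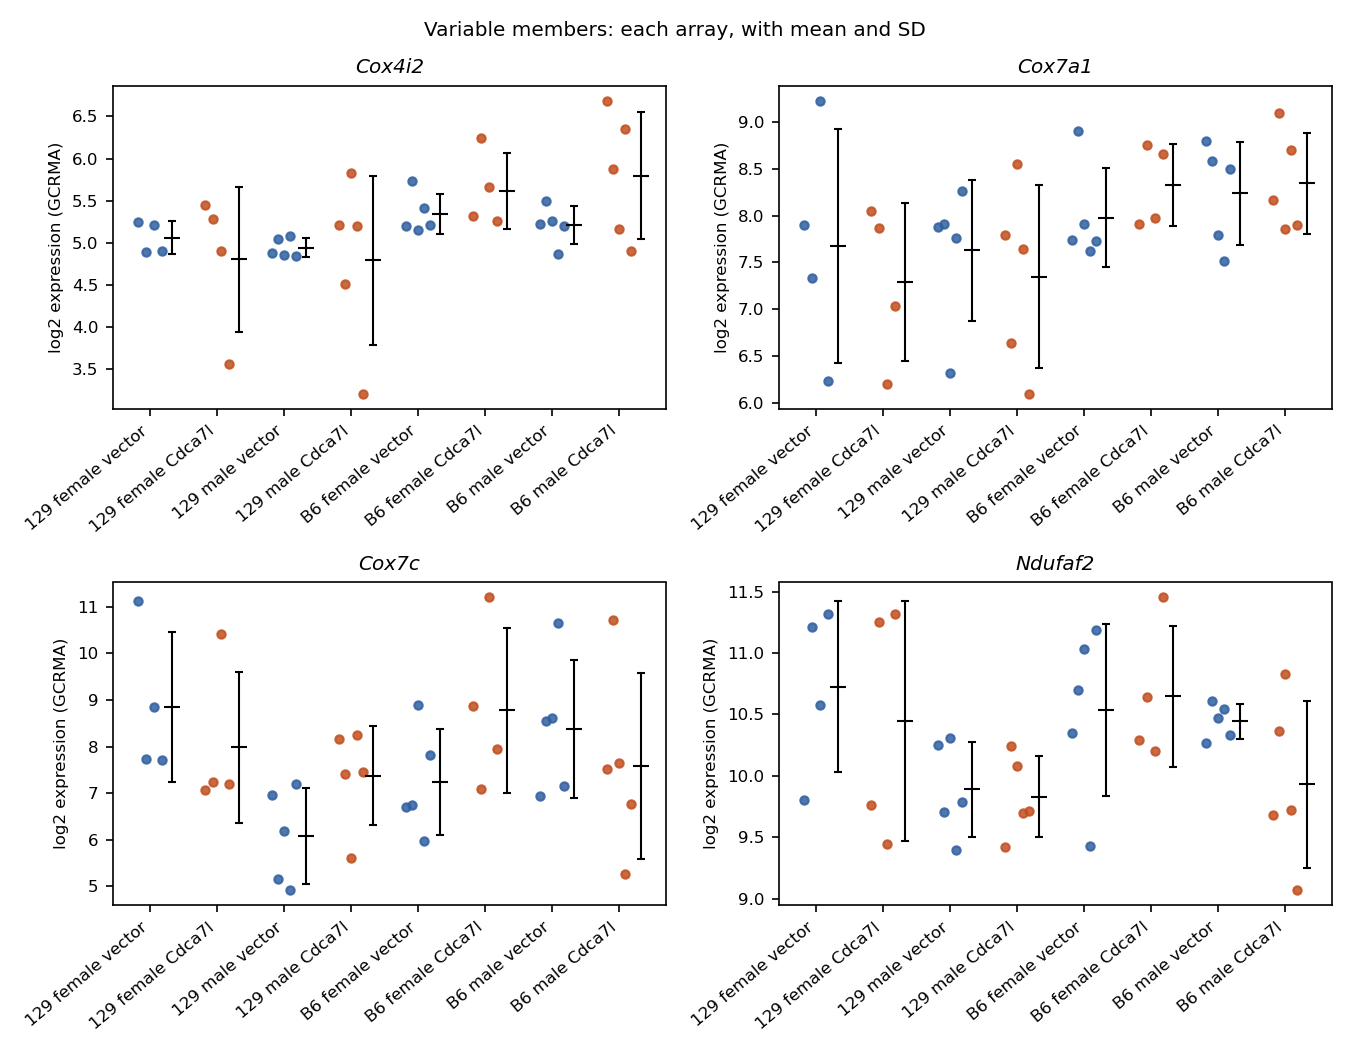
Log2 expression of Cox4i2, Cox7a1, Cox7c and Ndufaf2 on every array by group (blue: vector; orange: Cdca7l), with the group mean and SD in black; the y axes differ between panels and do not start at 0. Cox7c spans 4.91 to 11.21, and its groups overlap widely.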

How the data were processed

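The deposited table holds log2 values for 45101 probe sets on 37 arrays; GCRMA and Partek 6.5 are named per the submitters' processing notes, and a joint normalization of the arrays is not stated there. No further scaling was applied. The members and gene lists were chosen with earlier results of these data known. Genes were named from the platform annotation through probe sets with 1 symbol, and all 92 members matched RefSeq by Entrez ID. Control probe sets (64) and those not above 3.19 on at least 4 arrays (19458) were left out, and 25579 were tested. One limma 3.58.1 model (R 4.3.3) with 8 group means and 29 residual degrees of freedom gave all comparisons, with Benjamini-Hochberg adjustment over all tested probe sets. Strain and sex comparisons had the clone label as a random block (correlation 0.409); plasmid comparisons had none.

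Cultures with 1 clone label deviated from their group means with correlations from -0.0887 to 0.775 over 15 pairs, and the labels do not say that a number marks a shared source. Named genes were all members past the threshold (up to 10 each way), the 5 with the smallest p where fewer than 5 passed, the 5 largest and 5 smallest pooled SDs, a fixed panel of isoforms, X-linked and complex II genes, and up to 4 genes past the threshold of each other list. The alternatives were other blocks, quantile normalization, no filter, array weights, another variance prior, probe sets without suffix, 1 probe set per gene, the compared groups alone, and leaving out arrays or clones. On simulated data the fit recovered 56% of changes of 1 log2 unit in the averaged plasmid comparison and 32% of 0.5. These shares were 26% and 4% in B6 males, 60% and 18% between strains, and 42% and 14% between sexes. The shares refer to all 25579 probe sets and not to the members. In the measured data the median pooled SD was 0.643 for all probe sets and 0.207 for the members. Recovery for the members alone was not tested. Log2 values carry no depth, so the number of arrays limits precision.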

Additional observations from a re-analysis of the deposited data

Results flagged for a closer look

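The 120 combinations examined paired a group with 1 of 8 members, or with a score over a complex, the assembly factors or all members. The 8 members were those that passed between strains and those with the largest spread within groups. In 10 combinations 1 array lay far from the others of its group, and all 10 were of members and none of scores. Chance alone flags about 1 in 20 such groups. Ndufs5 read 11.94 in 129 male Cdca7l 3(1), beside 11.80 to 11.82 for the others. Ndufaf7 read 9.10 in 129 female vector 4(1), beside 9.84 to 9.97, which moved away from the B6 values. Sdhc read 12.48 in 129 female Cdca7l 2(3), beside 12.67 to 12.70, and 12.85 in 129 male Cdca7l 3(2), beside 12.50 to 12.55.

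In B6 males, Sdhc read 12.05 in vector 4(3), beside 12.34 to 12.43, and 12.59 in Cdca7l 3(5), beside 12.12 to 12.20. Ndufaf6 read 7.24 in B6 male Cdca7l 4(3), beside 5.53 to 5.79. Cox7a1 read 6.32 in 129 male vector 3(3), beside 7.76 to 8.27, and 8.91 in B6 female vector 3(3), beside 7.62 to 7.91. Cox7c read 10.41 in 129 female Cdca7l 2(3), beside 7.06 to 7.24.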

How the results depend on the processing

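Ndufaf7, Ndufs5 and Sdhc passed between strains in 61 of 61 settings and Cox6b2 in 39. Leaving out 1 array or clone gave 3 to 6 members between strains and 0 in each other comparison, beside 2556 to 6510 of all probe sets between strains (2556 without 129 female clone 4(1), 6510 without 1(3)) and 14 to 403 between sexes. Without the clone label (no replicate block) 7 members passed between strains, with Atp5g1, Cox7a1 and Cox4i2 added, and 6456 of all probe sets; 82 passed between sexes. With a random or a fixed replicate block 0 members passed in any Cdca7l comparison. The random block called 1, 0, 1 and 4 of all probe sets in 129 females, 129 males, B6 females and B6 males, with 1513, 828, 188 and 1479 at an unadjusted p under 0.05, among them 1 member in B6 males. Gene-by-gene array weights, added after the data were seen because the planned method did not converge, ran from 0.105 to 7.92 and called 1 member in 129 males, 25 between strains, 19 between sexes and 39 for the sex difference between strains, beside 1589, 13287, 10811 and 9104 of all probe sets; the cause was not tested. Without both arrays that stand apart, 4 members passed between strains and 0 in the other comparisons, beside 28 probe sets between sexes.

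Signs turned, with no call on either side, for Ndufb2 (0.064 averaged and 0.473 in 129 males), Atp5g1 (0.513 averaged and -0.270 for the sex difference between strains) and Cox7c in 129 males (-0.019) on probe sets without suffix; for Uqcr11 (0.037), Ndufb9 (0.062) and Atp5md (0.004) in 129 females and Uqcrfs1 in B6 females (-0.100) under array weights; and for Atp5e in B6 females (0.038) under a fixed replicate block. Quantile normalization moved the median of all probe sets from -0.116 to 0.014 for the sex difference between strains and left the members' median at 0.199. The members' median kept its sign in all settings run for the averaged plasmid (-0.076 to -0.028), strain (-0.050 to -0.004) and sex (-0.121 to -0.064) comparisons. It did not in the single groups: it ran from -0.157 to 0.021 in 129 females, from -0.047 to 0.034 in 129 males, from -0.192 to 0.011 in B6 females and from -0.073 to 0.010 in B6 males, and from -0.136 to 0.053 for the Cdca7l difference between strains.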
